A study of Mus musculus with 9 samples.

Results

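Histone deacetylases and sirtuins remove acetyl groups from lysines of histones and other proteins, and 10 of their genes are described here in mouse nucleus accumbens: Hdac1, Hdac2, Hdac3, Hdac4, Hdac5, Hdac7, Hdac9, Hdac11, Sirt1 and Sirt2. They were chosen by name, with earlier results of these data known. The choice was made out of 34324 genes on autosomes and the X chromosome that code for proteins or long noncoding RNAs. All 10 had enough coverage to be measured at the start and in the body of the gene. Another 8 genes of these enzymes, among them Hdac6 and Sirt6, are counted at the end with the other genes of the pathway.

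The enzymes fall into classes by sequence and mechanism. Class I (Hdac1, Hdac2 and Hdac3) comprises nuclear, zinc-dependent enzymes that act inside corepressor complexes, Hdac1 and Hdac2 with SIN3A, NuRD and CoREST and Hdac3 with NCoR. Class II, here the class IIa genes Hdac4, Hdac5, Hdac7 and Hdac9, encodes proteins that bind MEF2 transcription factors and leave the nucleus when kinases such as the CaM kinases phosphorylate them. Hdac11 is the sole class IV gene, and the sirtuins Sirt1 and Sirt2 depend on NAD+, Sirt1 being largely nuclear and Sirt2 largely cytoplasmic. In the nucleus accumbens, Hdac5 is known from work on responses to chronic stress and cocaine. Methylation of CpG sites at a gene's start is generally low where CpGs are dense, whereas CpGs in the body of a gene are mostly methylated.

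The libraries were whole-genome bisulfite libraries of DNA from frozen tissue punches of male C57BL/6J mice aged 8 weeks. Bisulfite leaves methylated cytosines as C and turns unmethylated ones into T, so a level here is the percentage of calls at CpGs that were read as C, summed over the CpGs of a window; hydroxymethylated cytosines also read as C. The 5 Control libraries carry the numbers 2, 3, 4, 5 and 8 and the 4 Susceptible libraries the numbers 2, 3, 6 and 7. The labels attach the same stress to all 9, chronic social defeat by CD1 aggressor males, once a day for 10 days. They state neither the handling of the Control mice nor the score by which mice were called susceptible. A punch holds neurons and glia, so a change in the share of a cell type and a change within cells cannot be told apart.

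Listed calls per library ran from 313475624 to 570984634, and every Susceptible library had more than every Control library. The strands of single CpGs disagreed by 18.4 times the binomial amount in Control 5 and 19.7 times in Control 8, against 2.38 to 6.11 times in the other libraries, so a difference named for its p-value is also given without them where that moved it by over 1.5 times. Susceptible 7, and less so Susceptible 6, stood apart at marker genes. The mean body level of 6 astrocyte genes was 71.9% there, with 4 of the 6 genes at their lowest, against 77.6 to 79.9% in Control and 78.6 to 79.0% in the other Susceptible libraries. That of 8 striatal projection neuron genes was 71.0% in Susceptible 7, with 5 of the 8 genes at their highest. It was 66.4% in Susceptible 6, with 1 of the 8 genes at its highest. The Control libraries stood at 56.9 to 62.9% and the remaining Susceptible libraries at 59.1 to 59.5%. These striatal genes, which include Drd1, Drd2 and Ppp1r1b, all had starts under 20% in the mean of the 9 libraries, and Control 8 had the lowest body level in 6 of the 8. Susceptible 7 also had the lowest mean body level of oligodendrocyte (53.8%), microglia (79.8%), cortical projection neuron (46.7%) and endothelial genes (58.0%). Its mean for 6 general neuron genes was 69.3%, above only Control 5, at 68.4%. At the starts of 4 cortical projection neuron genes Control 4 and Control 8 also stood apart. The mean there was 28.3% in Susceptible 7, 30.5% in Control 4 and 35.7% in Control 8, against 39.6 to 45.1% in the other 6 libraries, and the start of Tbr1 read 31.3, 36.8 and 38.2% in these libraries, against 55.3 to 61.5%.

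Promoter sequences are shown first because their numbers of CpGs differed widely between these genes. The RefSeq promoter table (GRCm38.p6, 250 bases before to 50 after a start) matched 8 of the 10 genes, with 12 promoters; Hdac1 and Hdac3 had no entry. Among 32619 promoters of that table the median held 7 CpGs. The 300 bases of Sirt1 held 47 CpGs, more than 98.5% of all promoters, and those of Hdac2 held 36. Hdac5 held 18, Hdac11 22 and Sirt2 16. The outermost promoters of Hdac9 and Hdac7 were poor in CpGs, with 0 and 6. In Hdac4 and Hdac7 dense promoters lay inside the gene, with 32 CpGs in Hdac4 and 31 and 35 in 2 overlapping Hdac7 promoters. The sequences below run 5′ to 3′ along the gene's strand, with every CpG in capitals. They are the CpG-free outer promoter of Hdac9 (chr12:34917046-34917345, minus strand), the outer and an inner promoter of Hdac7 (chr15:97844453-97844752 and chr15:97831446-97831745, both minus), the inner promoter of Hdac4 (chr1:92180292-92180591, minus), and the promoters of Hdac5 (chr11:102230123-102230422, minus) and Sirt1 (chr10:63338986-63339285, minus), which share a motif.
Hdac9 outer: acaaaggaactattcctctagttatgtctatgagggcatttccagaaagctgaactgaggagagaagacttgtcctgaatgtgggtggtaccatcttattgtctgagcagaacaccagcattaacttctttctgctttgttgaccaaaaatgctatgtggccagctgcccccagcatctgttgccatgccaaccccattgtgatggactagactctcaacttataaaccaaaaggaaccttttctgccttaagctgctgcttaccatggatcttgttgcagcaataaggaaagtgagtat
Hdac7 outer: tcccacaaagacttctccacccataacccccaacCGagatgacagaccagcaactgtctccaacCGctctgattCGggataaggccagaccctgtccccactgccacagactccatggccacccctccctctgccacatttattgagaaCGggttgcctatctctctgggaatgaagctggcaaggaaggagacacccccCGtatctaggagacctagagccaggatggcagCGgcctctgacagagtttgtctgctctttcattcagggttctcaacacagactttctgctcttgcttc
Hdac7 inner: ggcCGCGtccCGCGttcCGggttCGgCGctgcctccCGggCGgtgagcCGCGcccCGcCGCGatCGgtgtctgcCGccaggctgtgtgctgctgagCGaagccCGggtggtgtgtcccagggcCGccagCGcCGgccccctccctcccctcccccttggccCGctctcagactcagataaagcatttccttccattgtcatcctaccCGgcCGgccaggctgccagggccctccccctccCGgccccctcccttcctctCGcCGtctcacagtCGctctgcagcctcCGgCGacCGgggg
Hdac4 inner: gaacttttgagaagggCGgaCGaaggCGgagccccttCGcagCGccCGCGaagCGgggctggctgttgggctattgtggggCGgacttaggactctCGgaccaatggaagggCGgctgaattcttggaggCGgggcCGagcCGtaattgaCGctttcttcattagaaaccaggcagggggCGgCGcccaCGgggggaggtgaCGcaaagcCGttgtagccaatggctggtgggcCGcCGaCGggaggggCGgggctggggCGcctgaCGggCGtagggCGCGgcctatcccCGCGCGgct
Hdac5: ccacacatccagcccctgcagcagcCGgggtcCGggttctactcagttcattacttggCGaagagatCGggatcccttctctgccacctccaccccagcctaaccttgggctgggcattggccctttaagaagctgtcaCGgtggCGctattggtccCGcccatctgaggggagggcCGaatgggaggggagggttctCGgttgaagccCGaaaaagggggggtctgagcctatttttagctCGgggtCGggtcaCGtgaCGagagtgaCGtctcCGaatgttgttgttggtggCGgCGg
Sirt1: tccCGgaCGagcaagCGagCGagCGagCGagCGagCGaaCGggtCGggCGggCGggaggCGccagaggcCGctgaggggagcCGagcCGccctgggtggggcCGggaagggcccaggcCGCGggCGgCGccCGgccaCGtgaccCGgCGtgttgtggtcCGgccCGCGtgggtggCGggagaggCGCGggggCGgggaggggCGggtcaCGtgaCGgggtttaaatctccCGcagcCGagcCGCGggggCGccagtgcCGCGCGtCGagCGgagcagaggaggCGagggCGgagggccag

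Over these 300 bases the CpG-dense promoters were almost unmethylated and the outer Hdac7 promoter was methylated. The Sirt1 promoter stood at 0.903% ± 0.579 (SD, n = 5) in the Control group and at 1.13% ± 0.450 (SD, n = 4) in the Susceptible group. The Hdac5 promoter stood at 1.89% ± 2.41 and 1.41% ± 0.583. The inner Hdac4 promoter read 1.53% ± 0.754 and 2.37% ± 1.31, and the inner Hdac7 promoter shown read 0.994% ± 0.616 and 1.49% ± 0.677. The 6 CpGs of the outer Hdac7 promoter read 80.7% ± 5.56 and 81.9% ± 2.80. The groups overlapped at each of these promoters.

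Short motifs were searched on both strands, as letters only. The GC box GGGCGG, present in 35.9% of all promoters of the table, matched 7 times in Sirt1 and 5 times in the inner Hdac4 promoter. The E-box CACGTG, present in 7.20% of promoters, matched 2 times in Sirt1 and 1 time in Hdac5. Around 1 of the Sirt1 matches and the Hdac5 match, both promoters carry the same 14 bases, CGGGTCACGTGACG, the longest stretch with an E-box that they share. It also holds TGACG, which is in 20.9% of promoters. It was searched because it had been seen in both sequences, and 9 of the 32619 promoters (0.0276%) hold it. The CpG inside that Hdac5 E-box was listed in 8 libraries and read 0% in the Control mean and 1.14% in the Susceptible mean. The matching CpG of Sirt1 was listed in 2 libraries, at 0% in both, with 10 to 15 calls. The CCAAT box CCAAT, in 37.6% of promoters, matched 2 times each in Hdac4, Hdac5 and Sirt2.

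At gene starts, 7 of the 10 genes had low methylation and 3 class II genes did not. The window was 1000 bp on each side of the outermost annotated start, which is the annotated bound of the gene by its strand. For Hdac4 the promoter table lists no start at that bound, only the inner one. Levels under 20% were taken as low. Low starts were also found at 11567 of 19324 protein-coding genes (59.9%), whose median was 10.3%. All 3 class I genes were low. Hdac2, which pairs with Hdac1 in corepressor complexes, ranged from 2.06 to 4.93% over the 9 libraries, and Hdac3, the catalytic subunit of the NCoR complex, from 3.06 to 9.04%. Hdac1 was the most variable of the class, from 4.47% in Susceptible 7 to 13.2% in Control 8. Both sirtuins were low, Sirt1 at 2.67 to 7.68% and Sirt2 at 2.19 to 4.25%. Hdac11 stood higher, at 8.06 to 15.5%. The start of Hdac1 and of Hdac3 was taken as the CpG-richer end of the gene, because the table gives no strand for them; that end was the start in 80.6% of 16620 protein-coding genes with a strand, and in 95.4% of the 7767 where one end held at least 3 times the CpGs of the other. The Sirt2 window also covers an end of Nfkbib, and the Hdac3 window an end of Rell2, so those CpGs belong to both genes.

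**Figure D1:**
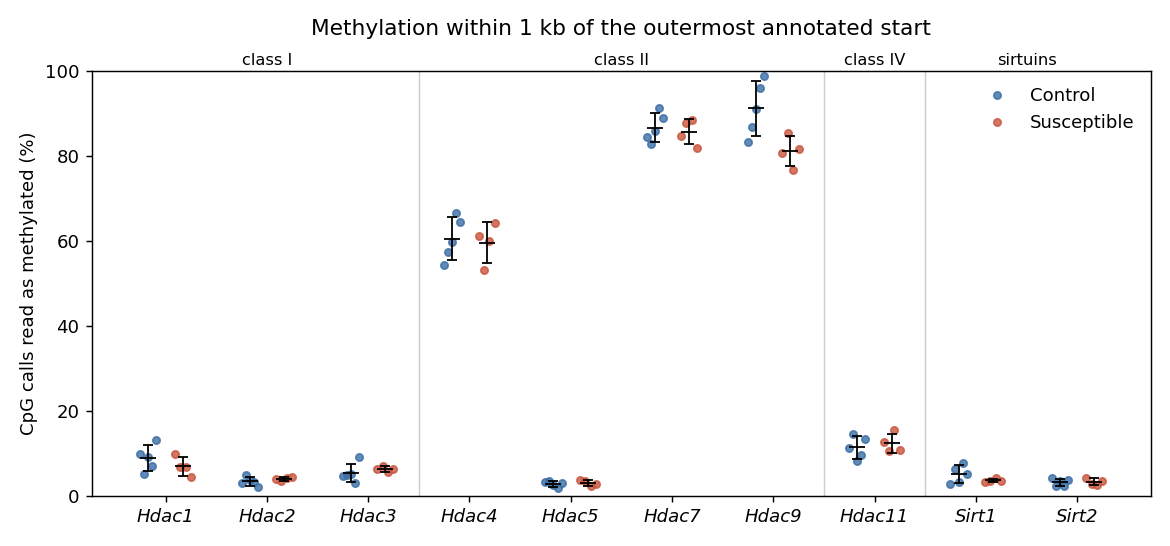
Percentage of CpG calls read as methylated within 1 kb of the outermost annotated start (vertical axis) for each of the 10 genes, grouped by class; points are libraries, bars the group mean with 1 SD (5 Control, 4 Susceptible). Hdac4, Hdac7 and Hdac9 sit between 53.1 and 98.9%, and the other 7 genes between 1.75 and 15.5%.

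The class II genes differed widely from each other at their outermost starts. Hdac5 read 3.16, 3.49, 2.61, 1.75 and 2.89% in Control libraries 2, 3, 4, 5 and 8, and 3.75, 3.53, 2.28 and 2.64% in Susceptible libraries 2, 3, 6 and 7. Hdac4 read 54.3, 57.5, 59.8, 66.6 and 64.6% in the Control and 61.1, 53.1, 60.1 and 64.3% in the Susceptible libraries. Hdac7 read 84.4, 82.9, 86.0, 91.4 and 89.0% in the Control and 84.8, 87.8, 88.6 and 82.0% in the Susceptible libraries. The order from Hdac5 over Hdac4 to Hdac7 held in each of the 9 libraries, with no overlap between the 3 genes. The outer Hdac4 start was intermediate and not evenly methylated. Its running level over 5 CpGs at the start itself was 32.8%, against 68.3% in Hdac7 and 74.4% in Hdac9, and the 1-kb tile at chr1:92195001-92196000 stood at 41.2% ± 12.1 (SD, n = 5) and 39.8% ± 7.91 (SD, n = 4). Hdac9 lay beside Hdac7, and these 2 were not separated by their spread. The Hdac9 window held 5 to 9 listed CpGs and 93 to 218 calls per library, against 32 to 37 CpGs and 1026 to 1688 calls for Hdac7.

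Each of these 3 outer starts was followed inside the gene by a CpG-dense unmethylated stretch, defined by a running level over 5 CpGs that stayed under 20%. In Hdac4 the stretch spanned 1987 bp (chr1:92179279-92181265) with 189 CpGs. It held the only Hdac4 start of the promoter table, 15361 bp past the outer bound. Its level ran from 0.926 to 2.51% over the 9 libraries. In Hdac7 it spanned 1468 bp (chr15:97830613-97832080) with 130 CpGs at 0.398 to 2.74%, and it held both dense inner starts, 12735 and 13007 bp past the outer one. The long noncoding RNA gene Gm33636 overlaps it. In Hdac9 it spanned 1745 bp (chr12:34906081-34907825) with 112 CpGs at 0.722 to 1.88%, from 9270 bp past the outer start. The promoter table lists no Hdac9 start in that stretch. The inner Hdac9 start it does list, 388206 bp past the outer one, had 19 CpGs within 1000 bp at 34.4% ± 6.06 (SD, n = 5) and 30.8% ± 8.70 (SD, n = 4). Just upstream of that start lay a short low stretch of 457 bp (chr12:34528987-34529443), with 6 CpGs at 0 to 15.4% over the libraries. The 3 CpGs of its 300-base promoter read 16.3% ± 11.2 and 12.4% ± 9.87, from 10 to 106 calls. A further inner Hdac7 start, 29639 bp past the outer one, was methylated at 83.1% in Control and 83.3% in Susceptible libraries.

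The other 7 genes had their unmethylated stretch at the outermost start itself, and its length varied. It spanned 1080 bp in Hdac1, 1102 bp in Hdac11, 1402 bp in Sirt2, 1630 bp in Hdac2, 1702 bp in Sirt1, 2134 bp in Hdac3 and 3133 bp in Hdac5. Sirt1 held the most CpGs in it, 195, and Hdac11 the fewest, 50. The Hdac5 stretch reached 2653 bp into the gene and 479 bp upstream, whereas that of Hdac3 reached 626 bp into the gene and 1507 bp upstream. A second stretch in Hdac5, of 759 bp and 24 CpGs, began 10818 bp into the gene and read 1.94 to 9.24%.

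**Figure D2:**
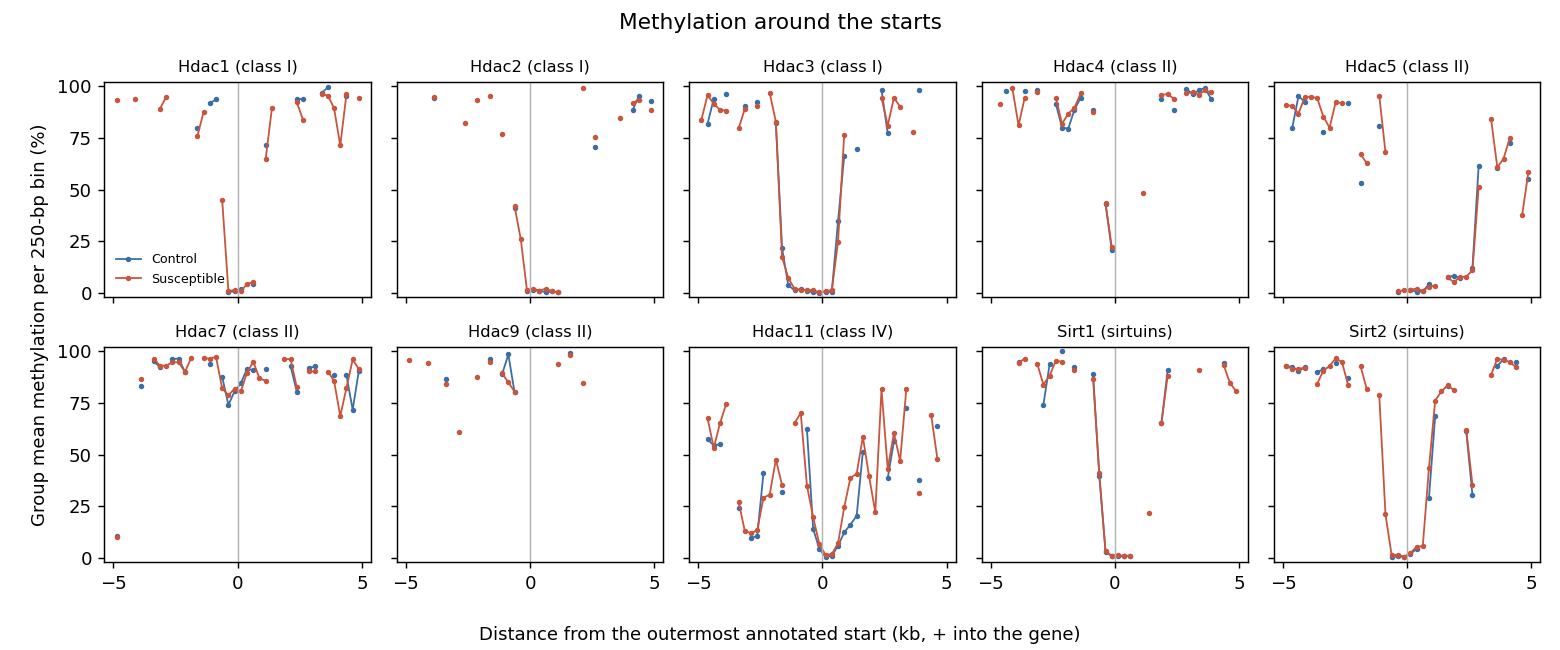
Group mean methylation (vertical axis, %) in 250-bp bins against distance from the outermost annotated start in kb (horizontal axis, positive into the gene), blue for Control and red for Susceptible; bins without enough calls are blank and lines join neighbouring bins. The panels of Hdac1, Hdac2, Hdac3, Hdac5, Hdac11, Sirt1 and Sirt2 dip to near 0 at the start, with a wide dip of 3133 bp in Hdac5. Hdac4 falls to 20.9% (Control) and 22.2% (Susceptible) in the bin just before the start, Hdac7 stays at or above 74.0% within 1 kb of its start, and the bins next to the Hdac9 start are blank.

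In gene bodies, from 1000 bp past the start to the other annotated bound, the class I genes had the highest means and Hdac5 the lowest. Means of the 9 libraries ran from 62.4% in Hdac5 to 90.5% in Hdac1, and the median protein-coding body stood at 84.3%. Class I bodies ranged over the libraries from 89.2 to 92.1% in Hdac1, 85.7 to 90.1% in Hdac2 and 88.2 to 91.6% in Hdac3. The sirtuins ranged from 81.7 to 92.0% in Sirt1, overlapping the class I ranges, and from 78.8 to 84.8% in Sirt2. Hdac9, the longest gene of the set, ranged from 83.5 to 85.5%. Hdac4 followed at 78.2 to 82.3%, then Hdac11 at 70.8 to 77.5% and Hdac7 at 66.8 to 77.9%, and these last 2 were not separated by their spread. The Hdac5 body read 63.1, 62.8, 58.8, 63.5 and 62.8% in Control libraries 2, 3, 4, 5 and 8 and 65.1, 62.8, 65.5 and 57.3% in Susceptible libraries 2, 3, 6 and 7. It was the lowest of the 10 bodies in each of the 9 libraries.

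**Figure D3:**
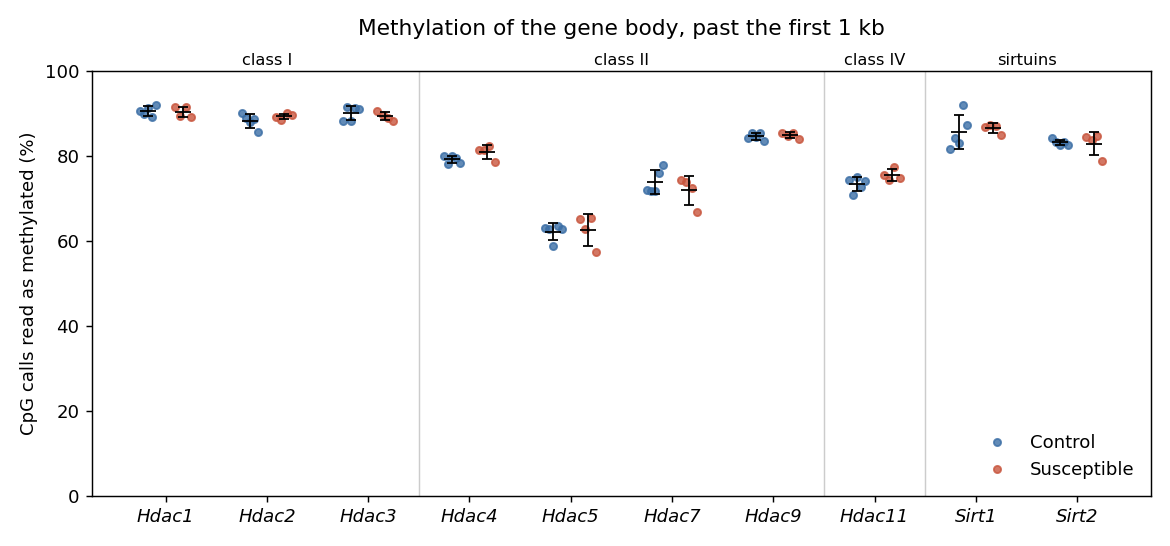
Percentage of CpG calls read as methylated in the gene body past its first 1 kb (vertical axis) for each gene by class; points are libraries and bars the group mean with 1 SD (5 Control, 4 Susceptible). Hdac5 lies lowest, between 57.3 and 65.5%, and class I genes lie between 85.7 and 92.1%.

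Tiles of 1 kb placed the low body level of Hdac5 along the gene. Of 1438 tiles of the 10 genes and their 5000 bp flanks with any listed CpG, 680 passed the minimum of 3 CpGs and 20 calls that each library had to meet. Inside the genes and more than 2000 bp past the start, 30 tiles had a mean under 50%. Hdac5 held 10 of these (45 tiles measured), Hdac9 9 (258), Hdac4 6 (176), Hdac7 4 (61) and Hdac11 1 (25). The numbers in brackets also include tiles at the start and in the flanks. Hdac1, Hdac2, Hdac3, Sirt1 and Sirt2 held 0. The lowest such tile of Hdac5, at chr11:102218001-102219000, read 19.3, 12.4, 9.68, 26.2 and 16.1% in Control libraries 2, 3, 4, 5 and 8 and 20.8, 17.4, 19.1 and 10.9% in Susceptible libraries 2, 3, 6 and 7. The lowest of Hdac11, at chr6:91159001-91160000, read 27.4 to 60.2% over the libraries, so it varied far more than the lowest tiles of Hdac4, Hdac7 and Hdac9, which stayed at or under 2.54%. The 10 of Hdac5 had their centres from 2671 to 21671 bp past the start. Most low tiles in the flanks overlapped other genes, Marcksl1 beyond Hdac1, Diaph1 and Rell2 on either side of Hdac3, G6pc3 beyond Hdac5, and Slc48a1 and Gm33690 on either side of Hdac7. Those that overlapped no gene of the table lay upstream of Hdac11, at chr6:91153001-91154000 (14.6%) and chr6:91154001-91155000 (30.8%), and of Hdac2, at chr10:36973001-36974000 (46.8%).

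**Figure D4:**
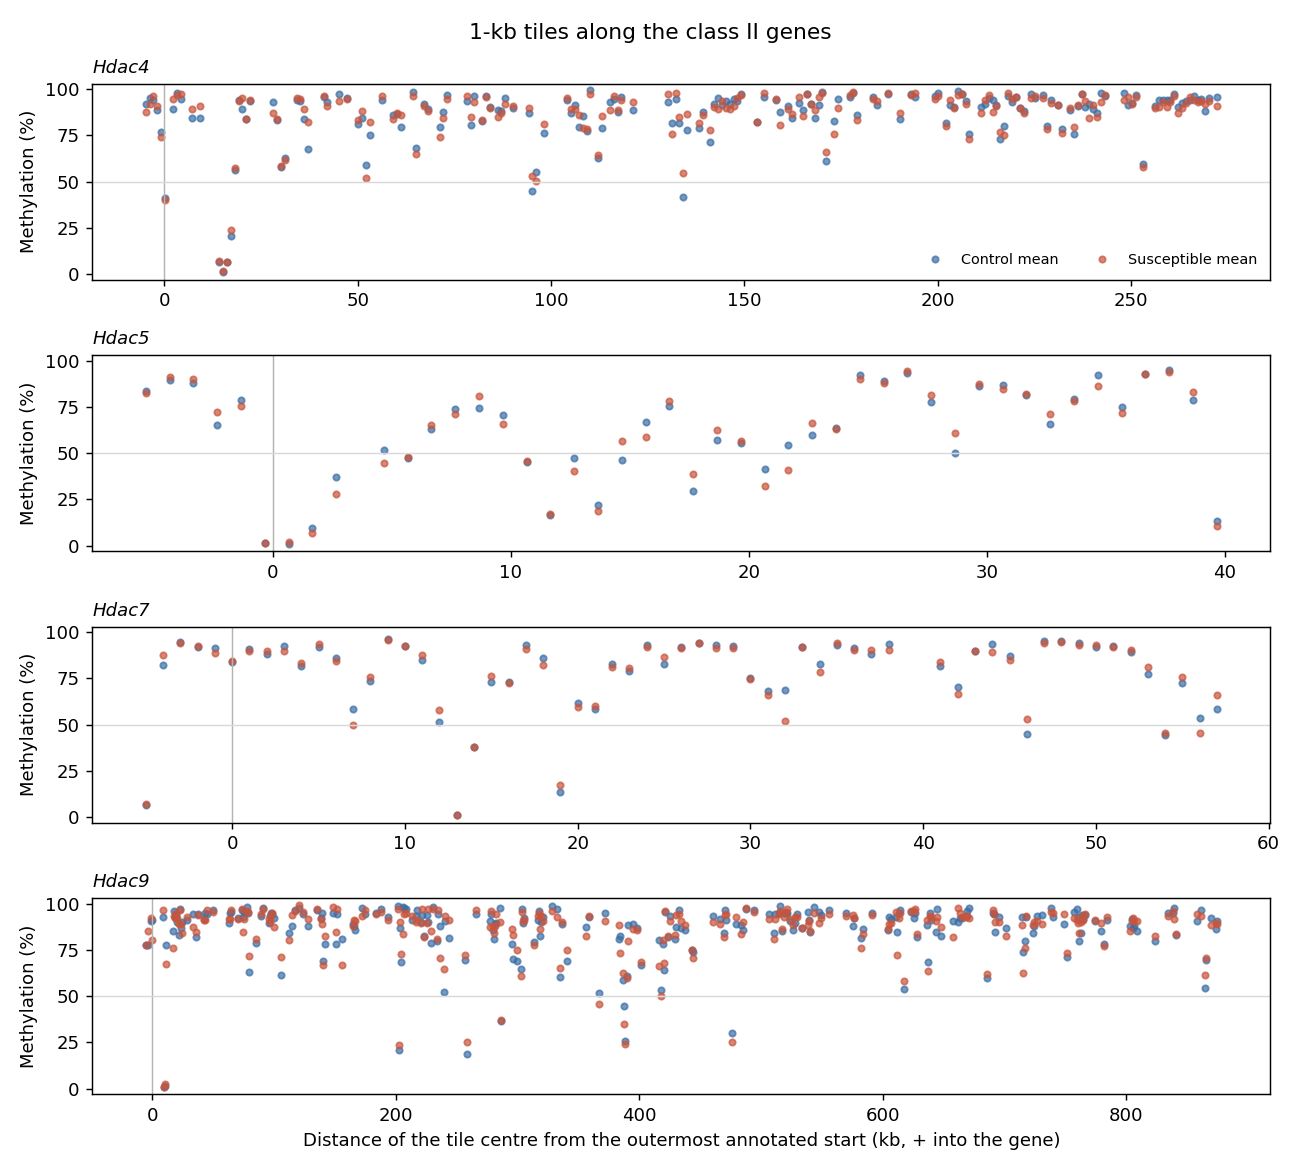
Group mean methylation of 1-kb tiles (vertical axis, %) along Hdac4, Hdac5, Hdac7 and Hdac9 against distance of the tile centre from the outermost start in kb (horizontal axis, positive into the gene), blue for Control and red for Susceptible. The lowest tiles lie 15201 bp in for Hdac4, 13001 bp for Hdac7 and 9594 bp for Hdac9, and the low tiles of Hdac5 spread from 2671 to 21671 bp.

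No start of these genes differed between Control and Susceptible mice at an adjusted p under 0.05. Across the genome 0 of 30874 starts were called (background 0%), and 0 of the 10, and limma on logit methylation also called 0. At an unadjusted p under 0.05 stood 1 of the 10, Hdac9, against 4.81% of all starts (2.21% higher and 2.6% lower in Susceptible). That count was 0 without Control 5, Susceptible 2, Susceptible 6 or Susceptible 7, 0 within 2000 bp of the start, and 2 without Control 2 (5.82% of all starts). It was also 0 over CpGs listed in all 9 libraries and 0 without Control 5 and Control 8 together. With the start moved to the CpG-richer end or to the start of the promoter table it was 0 as well. Within 500 bp Hdac9 had too few CpGs to be measured. The groups were free of overlap at 0 of the 10, against 1.89% (0.946% higher and 0.943% lower in Susceptible). The Hdac9 start read 83.3, 86.8, 91.0, 96.1 and 98.9% in Control libraries 2, 3, 4, 5 and 8 and 80.7, 85.5, 76.8 and 81.7% in Susceptible libraries 2, 3, 6 and 7. The 4 highest values were Control, and Susceptible 3 lay above Control 2. Group means were 91.2% ± 6.40 (SD, n = 5) and 81.2% ± 3.60 (SD, n = 4). They differed by -10.04 percentage points (quasi-binomial model p = 0.0402, adjusted p = 0.970; two-sided exact permutation p = 0.0317, where the smallest possible is 0.00794). The 95% Wilson interval of the lowest library, Susceptible 6, was 69.2 to 82.9%, and that of Control 2 was 75.4 to 89.1%. Control 5 and Control 8 held the 2 highest values, and without them the difference was -5.87 points; within 2000 bp of the start it was -0.516 points.

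The other 9 starts differed by less than 2 points with all 9 libraries. With 1 library left out, the difference ranged from -2.91 to -0.848 points in Hdac1 and from -2.45 to 1.29 in Hdac4. Of class I, Hdac1 stood at 8.85% ± 3.03 (SD, n = 5) and 6.92% ± 2.21 (SD, n = 4), Hdac2 at 3.37% ± 1.06 and 3.98% ± 0.428, and Hdac3 at 5.36% ± 2.22 and 6.28% ± 0.624. Of class II, Hdac4 stood at 60.5% ± 5.03 and 59.6% ± 4.72, Hdac5 at 2.78% ± 0.663 and 3.05% ± 0.701, and Hdac7 at 86.7% ± 3.42 and 85.8% ± 3.02. Hdac11 stood at 11.3% ± 2.64 and 12.4% ± 2.27. Sirt1, the best covered start with 4091 to 9321 calls, stood at 4.9999% ± 2.12 and 3.59% ± 0.351, and Sirt2 at 3.12% ± 0.845 and 3.31% ± 0.743. Each difference was smaller than the Control SD, and the groups overlapped at each of the 9 (exact permutation p from 0.246 to 0.833). The groups also overlapped at the inner starts. The inner Hdac4 start read 1.02, 0.803, 2.01, 0.638 and 1.45% in the Control and 1.56, 2.30, 0.951 and 2.02% in the Susceptible libraries, with a difference of 0.522 points (exact permutation p = 0.206). The inner Hdac7 start 13007 bp past the outer one read 5.49, 2.91, 2.33, 0.398 and 2.40% in the Control and 4.58, 5.29, 4.04 and 3.59% in the Susceptible libraries, and the means lay 1.67 points apart (exact permutation p = 0.135). Control 2 was the highest of the 9 there, and the other 4 Control libraries lay under every Susceptible one. At the overlapping Hdac7 start 12735 bp past the outer one the means were 4.35% ± 2.15 and 6.59% ± 2.17. They lay 2.24 points apart (exact permutation p = 0.183).

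No gene body of the set was called, as was none of the 30258 bodies of the genome (background 0%), also with limma on logit methylation. At an unadjusted p under 0.05 stood 1 of the 10, Hdac4 (0 of the 10 with limma), against 3.9% of all bodies (2% higher and 1.9% lower in Susceptible). That count was 0 without Control 3, Control 8, Susceptible 2 or Susceptible 6, and 2 without Susceptible 7 (5.66% of all bodies). It was also 0 with the dispersion not moderated and 0 over CpGs listed in all 9 libraries. By library values 0 of the 10 were free of overlap, against 1.36% (0.588% higher and 0.77% lower). The Hdac4 body, read by 42136 to 78410 calls, stood at 80.02, 78.2, 80.01, 79.6 and 78.5% in Control libraries 2, 3, 4, 5 and 8 and at 81.5, 81.5, 82.3 and 78.7% in Susceptible libraries 2, 3, 6 and 7. Susceptible 2, 3 and 6 lay above every Control library, Susceptible 6 the highest, and Susceptible 7 lay among them. The means were 79.3% ± 0.876 (SD, n = 5) and 81.0% ± 1.60 (SD, n = 4). They differed by 1.72 points (quasi-binomial model p = 0.0210, adjusted p = 0.99998; exact permutation p = 0.0556). Without Susceptible 7 it was 2.498 points (adjusted p = 0.862), and with each CpG weighted equally 0.529 points (exact permutation p = 0.484).

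With all 9 libraries, Hdac11 had the largest body difference of the set, narrowly past that of Hdac7 (-2.02 points). The Hdac11 body read 74.4, 70.8, 75.1, 72.8 and 74.0% in the Control and 75.6, 74.4, 77.5 and 74.8% in the Susceptible libraries. Of the Susceptible libraries 2, Susceptible 6 the higher, lay above every Control library and 2 among them. The means were 73.4% ± 1.71 (SD, n = 5) and 75.6% ± 1.37 (SD, n = 4), 2.17 points apart (adjusted p = 0.99998, exact permutation p = 0.0635). The Hdac7 body stood at 73.9% ± 2.90 and 71.9% ± 3.51, and the Hdac5 body at 62.2% ± 1.93 and 62.7% ± 3.78. Susceptible 7 was the lowest of the 9 libraries in Hdac5, in Hdac7 at 66.8% and in Sirt2 at 78.8%. In that library the mean body level was lowest for every marker list except neurons and striatal projection neurons, and highest for striatal projection neurons. Control 4, low at cortical neuron starts with Susceptible 7 and Control 8, was next lowest in the Hdac5 body, where the difference was -0.374 points without it. Control 8 read 62.79% in that body, just below the 62.82 to 63.5% of Control 2, Control 3 and Control 5. Susceptible 7 also had the lowest level over autosomes and the X chromosome, 74.6% against 75.7 to 77.1% in the other 8 libraries. Susceptible 6, where the mean of the striatal neuron genes was also high, was the highest library in the bodies of Hdac4, Hdac5, Hdac11 and Sirt2. Without it the difference was 1.28 points in Hdac4, 1.53 in Hdac11 and -0.467 in Hdac5. The part of cell types and of that overall level in these values was not tested. Without Susceptible 7 the Hdac5 difference was 2.27 points and the Hdac7 difference -0.322 points. The remaining 6 bodies (Hdac1, Hdac2, Hdac3, Hdac9, Sirt1 and Sirt2) had group means that differed by -0.644 to 1.06 points, with overlapping groups in each (exact permutation p from 0.278 to 0.929). With 1 library left out these differences reached -1.11 in Hdac3, 1.51 in Hdac2 and 2.46 in Sirt1.

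Among the 680 tiles 0 were called, with 0 of 1041809 in the genome (background 0%), and limma on logit methylation also called 0. At an unadjusted p under 0.05 stood 25 (3.68%), 9 of them higher in Susceptible, against 4.38% of all tiles (2.18% higher and 2.19% lower). The groups were free of overlap in 11 (1.62%), 2 of them higher in Susceptible, against 1.56% of all tiles (0.598% higher and 0.96% lower). Both shares were near the background. The tiles named next for their difference missed the threshold, each at an adjusted p of 0.997 in the model fitted with the formulas of limma.

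Hdac9 and Hdac5 held 5 of the 9 tiles named for their difference, and 258 and 45 of the 680 tiles measured. In Hdac9, the tile at chr12:34711001-34712000 read 100, 93.0, 99.4, 100 and 100% in Control libraries 2, 3, 4, 5 and 8 and 90.1, 90.7, 69.7 and 83.8% in Susceptible libraries 2, 3, 6 and 7, from 67 to 180 calls. The groups did not overlap there, and Susceptible 6 was the lowest. A second Hdac9 tile, at chr12:34761001-34762000, was named because its groups did not overlap, at 80.9% ± 8.99 (SD, n = 5) and 66.8% ± 2.999 (SD, n = 4). Its quasi-binomial model p was 0.0582, with 3 CpGs and 64 calls in the libraries with the fewest. A further one, at chr12:34680001-34681000, was named for its p-value and its groups overlapped, at 87.8% ± 9.78 and 70.8% ± 6.71. In Hdac5, the tile at chr11:102227001-102228000, centred 2671 bp past the start and at the inner edge of the unmethylated stretch, read 36.6, 35.2, 36.5, 44.4 and 32.0% in the Control and 31.9, 24.2, 30.0 and 26.6% in the Susceptible libraries. Its closest values, Control 8 and Susceptible 2, were nearly equal. This tile was also named because its groups did not overlap, and its quasi-binomial model p was 0.0970. The Hdac5 tile at chr11:102208001-102209000 stood at 54.2% ± 8.55 and 40.9% ± 5.14.

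Hdac4, Hdac7 and Hdac2 held the rest of the named tiles. The Hdac4 tile at chr1:92175001-92176000, centred 20201 bp past the outer start and beyond the unmethylated stretch, was the one tile named for its difference that was higher in Susceptible libraries. It read 93.3, 90.0, 88.5, 88.2 and 85.5% in the Control and 94.3, 95.9, 95.2 and 94.9% in the Susceptible libraries, without overlap. The Hdac4 tile at chr1:91956001-91957000 stood at 92.1% ± 2.04 (SD, n = 5) and 84.2% ± 6.79 (SD, n = 4). Leaving out Susceptible 7 moved its difference from -7.85 to -4.73 points. The Hdac7 tile at chr15:97800001-97801000, the best covered of these with 1095 to 1776 calls, stood at 93.6% ± 1.67 and 89.4% ± 2.60. The Hdac2 tile at chr10:36998001-36999000 stood at 98.6% ± 1.79 and 91.6% ± 0.776, from 3 CpGs and 41 calls in the library with the fewest. The unmethylated inner tiles were low in both groups. The lowest tile of Hdac4 stood at 1.13% and 1.65%, that of Hdac7 at 1.09% and 1.19%, and that of Hdac9 at 0.847% and 1.17%.

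By class, calls pooled over the genes gave start levels of 5.06% ± 0.842 (SD, n = 5) and 5.39% ± 0.444 (SD, n = 4) for class I, and 4.54% ± 1.52 and 3.51% ± 0.184 for the sirtuins. Class II starts stood at 40.04% ± 7.16 and 34.6% ± 2.55. That class level depends on how its genes are weighted, since Hdac5 brings more calls than Hdac4 or Hdac9. With genes weighted equally it was 60.3% ± 3.49 and 57.4% ± 0.331. With calls pooled, the lowest class II library stood at 30.4%, above the highest of class I, 6.05%, and of the sirtuins, 6.69%. That order rested on Hdac4, Hdac7 and Hdac9 at their outermost starts. The Hdac5 start stood at 2.78% and 3.05%, and the inner Hdac4 start at 1.18% and 1.71%. Sirt6, a sirtuin outside the set, had a start at 36.1% and 39.3%. Bodies stood at 89.9% ± 0.284 and 89.9% ± 0.831 in class I, at 79.1% ± 0.673 and 79.3% ± 1.60 in class II, and at 83.7% ± 0.812 and 83.5% ± 2.48 in the sirtuins. The groups overlapped in every class, at starts and in bodies, and no test was made of class levels.

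Other genes of the pathway gave no call either, in 4 lists of the remaining deacetylases, corepressor subunits, acetyltransferases, and class II partners with their kinases. The counts at an unadjusted p under 0.05 that follow stand against 4.81% of all starts and 3.9% of all bodies, and those of low starts against 59.9% of protein-coding genes. Of 8 remaining deacetylases 7 had a start under 20%, the exception being Sirt6, at 36.1% and 39.3%. At an unadjusted p under 0.05 stood 0 of their starts and 1 of their bodies, Hdac6, a largely cytoplasmic tubulin deacetylase, at 86.3% ± 4.18 (SD, n = 5) and 90.2% ± 1.29 (SD, n = 4). Control 8 and Control 5 were its lowest libraries, and its difference of 3.90 points was 2.21 without Control 8 and 1.27 without both. The start of Sirt4, a mitochondrial sirtuin, had the next smallest p of that list, at 1.03% ± 0.496 and 1.61% ± 0.390. All 22 corepressor genes had low starts, with 1 of 22 at an unadjusted p under 0.05, Gps2 of the NCoR complex, at 10.04% ± 3.86 and 13.5% ± 1.31. Its difference of 3.48 points was 2.07 without Control 5 and 1.12 without Control 5 and Control 8, its lowest libraries. Of their bodies 1 stood at that level, Sin3a, the scaffold on which Hdac1 and Hdac2 assemble, at 49.97% ± 4.74 and 45.0% ± 2.10. Control 8 and Control 5 were its highest libraries, and its difference of -4.995 points was -2.33 without both. The 12 acetyltransferases had 0 starts and 0 bodies at that level. Their smallest p-values belonged to the bodies of Kat2b (PCAF), at 83.96% ± 1.89 and 82.0% ± 1.74, and of Ncoa3, a nuclear receptor coactivator, at 79.8% ± 0.987 and 81.2% ± 1.60. Without Susceptible 6 these differences moved from -1.94 to -1.24 and from 1.35 to 0.8498 points.

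Among the partners of class II enzymes, the start of 1 gene and the bodies of 3 stood at an unadjusted p under 0.05, of 10 starts and 11 bodies measured, against 4.81% and 3.9% in the genome. Free of overlap were 1 start and 1 body of the list, against 1.89% of all starts and 1.36% of all bodies. The start of Mef2d, a MEF2 factor, read 2.49, 3.13, 2.96, 1.75 and 2.47% in the Control and 3.51, 4.29, 3.77 and 4.05% in the Susceptible libraries, without overlap (adjusted p = 0.970, exact permutation p = 0.00794, the smallest possible). The body of Mef2a read 62.7, 60.3, 63.2, 61.3 and 70.2% in the Control and 58.6, 56.8, 58.8 and 58.4% in the Susceptible libraries, also without overlap (adjusted p = 0.99998, exact permutation p = 0.0159). The body of Camk2b, a CaM kinase subunit, stood at 67.0% ± 1.90 (SD, n = 5) and 70.3% ± 2.96 (SD, n = 4), and that of Camk2a at 65.8% ± 1.96 and 68.8% ± 3.19. Without Susceptible 6 their differences moved from 3.37 to 1.94 and from 3.07 to 1.58 points. The genes of these lists were picked for the smallest p, so their p-values describe them and carry no weight beyond the genome-wide adjustment.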

How the data were processed

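Per the labels' protocols, the Pico Methyl-seq kit (Zymo) was used on column-purified, RNase-treated DNA. Bismark, Bowtie, Picard and the build mm10 are named in the submitters' processing notes, with no version. Per the file headers, the authors deposited for each cytosine of a CpG the count of calls (coverage) and the percent of its calls that were C or T. The lowest count listed is 10 in each library, so listed totals are not the full depth. Methylated calls were recovered as count times percent, and both strands of a CpG were added.

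Gene bounds came from a RefSeq table (GRCm38.p6) without exons, so exon, intron and UTR positions are not given. Strands came from the RefSeq promoter table, or from the CpG-richer end for genes without an entry there. Windows of starts (1000 bp each side), bodies and 1-kb tiles needed 3 CpGs and 20 calls or more in each library. Levels are methylated over all calls. Control and Susceptible were compared by a quasi-binomial logistic model fitted over all windows of the genome, with the dispersion moderated by the formulas of limma 3.58.1 (R 4.3.3) and kept at 1 or more, an F test, and Benjamini-Hochberg adjustment over all windows. The scripts ran in Python 3.11.15 with numpy 2.4.6 and scipy 1.17.1, and the model was tested on simulated data. Single values were also compared by two-sided exact permutation tests over the 9 libraries. Wilson intervals at 95% cover counting error only. Library pairs shared identical counts at up to 1.09% of CpGs, so no library was a copy of another. The labels name no animal, litter or batch for a library, so p-values measure the spread between these samples.

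Genes and lists were chosen with earlier results of these data known. Named are every gene at start and body, tiles of members past the threshold, the 3 tiles of smallest p, up to 6 further tiles without overlap, the lowest inner tile under 50% of each gene, and in each list the 2 genes of smallest p over starts and bodies and any other at an unadjusted p under 0.05 (Camk2b and Camk2a, chosen after their values were seen). Alternatives changed the dispersion, model, CpGs, coverage, minimum, window, libraries and weighting. The marker lists cover neurons, striatal and cortical projection neurons, oligodendrocytes, astrocytes, microglia and endothelium, and 0 of their starts and 0 of their bodies were called.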

Additional observations from a re-analysis of the deposited data

Results flagged for a closer look

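Within the groups of 4 or 5 libraries, 4 single values stood far from the rest of their group, out of 78 groups examined; chance flags about 1 in 20. All 4 were Control libraries. The Hdac5 body read 58.8% in Control 4, and 62.8 to 63.5% in the other 4 Control libraries. In the Hdac9 tile at chr12:34711001-34712000, Control 3 read 93.0% and the other Control libraries 99.4 to 100%. In the Hdac5 tile at chr11:102208001-102209000, Control 8 read 69.0% and the others 47.3 to 52.8%, and the difference of -13.3 points was -9.63 without Control 8. In the unmethylated Hdac9 tile at chr12:34907001-34908000, Control 5 read 0% and the others 0.905 to 1.20%.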

How the results depend on the processing

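No start, body or tile of the 10 genes was called under any alternative, and the lowest adjusted p of a member's start or body was 0.849. Over the genome, leaving out 1 library gave 0 to 1 starts called (1 without Control 4 and 1 without Susceptible 7), 0 to 0 bodies and 0 to 1 tiles (1 without Control 4). Of 20 differences of starts and bodies, 17 changed sign in at least 1 alternative and 3 (Hdac9 start, Hdac4 body and Hdac11 body) did not. Under the alternatives 284 of 334 differences kept their sign. Counted among them for each of the 20 is the exact permutation test, which uses the same levels and could not change a sign. The causes were not tested. In percentage points, differences that changed sign were as follows. With each CpG weighted equally: starts Hdac4 3.96, Hdac11 -0.0133, Sirt1 0.0976 and Hdac3 -0.166; bodies Sirt1 -0.0400 and Hdac5 -0.113. Over CpGs listed in all 9 libraries: Hdac1 start 0.463 and Hdac2 body -1.47. Without Control 5 and Control 8 (chosen after seeing the data): starts Hdac4 2.46, Hdac5 -0.0398 and Hdac7 1.32; bodies Hdac7 0.0411 and Hdac3 0.0682. Within 500 bp: starts Hdac4 0.867, Hdac1 0.506, Sirt1 0.273 and Hdac7 0.351. Within 2000 bp: Sirt2 start -0.255. At the start of the promoter table (also chosen later): Hdac4 0.522 and Hdac7 1.67. Over whole annotated bounds: bodies Hdac1 0.927 and Sirt1 -1.58. Leaving out 1 library, the starts ranged from -2.45 to 1.29 in Hdac4, -0.0385 to 1.81 in Hdac11, -0.121 to 0.435 in Sirt2 and -1.93 to 0.296 in Hdac7, and the bodies from -0.534 to 0.202 in Hdac1, -0.467 to 2.27 in Hdac5, -0.00769 to 0.579 in Hdac9, -0.108 to 2.46 in Sirt1 and -0.909 to 1.08 in Sirt2. With genes weighted equally the class II levels in Control and Susceptible moved to 60.3% and 57.4% at starts and to 75.0% and 75.1% in bodies. Tiles of the 10 genes at an unadjusted p under 0.05 numbered 25 of 680 (4.38% in the genome). With 1 library left out they ran from 17 of 683 without Susceptible 3 (3.87%) to 34 of 690 without Control 4 (5.37%). They numbered 43 of 843 without Control 5 and Control 8 (4.99%) and 15 of 460 over CpGs listed in all 9 libraries (4.60%). The number of tiles measured thus changed too.

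The numbers 2 and 3 occur in both groups, and deviations of same-numbered libraries correlated at 0.0258 and -0.0171 over tiles. Pairs of unlike number ran from -0.0954 to 0.132. These values therefore cannot tell whether the libraries numbered 2 or 3 share more than their number. The replicate block over these 4 libraries called 0 starts, 0 bodies and 0 tiles, and put 0 of 10 starts, 2 of 10 bodies and 38 of 899 tiles of the 10 genes at an unadjusted p under 0.05, against 5.55% of starts, 4.49% of bodies and 3.93% of tiles in the genome. With the block the signs turned for the starts of Hdac4 (1.21), Hdac1 (0.728), Hdac11 (-1.27), Hdac2 (-0.238) and Hdac7 (2.59) and the bodies of Hdac1 (0.244), Sirt2 (0.269), Hdac2 (-0.640), Hdac7 (2.32) and Hdac3 (0.262). The Hdac9 start difference was -1.95.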
